A study of Bos taurus with 15 samples.

Results

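The claudins described here are 9 genes, CLDN1, CLDN2, CLDN3, CLDN4, CLDN5, CLDN7, CLDN15, CLDN18 and CLDN23, out of 27270 genes in each single-cell RNA-seq (scRNA-seq) library, which list 22 claudins in all. They were chosen by symbol, and their levels were read in epithelial barcodes (droplets with a unique molecular identifier, UMI, of EPCAM or KRT14 and none of PECAM1) and in PECAM1 barcodes (a UMI of PECAM1 and none of EPCAM or KRT14). The libraries come from Holstein cattle. From newborn (NB) calves there are 11, of the forestomach (reticulum and omasum), the abomasum or glandular stomach, the small intestine (duodenum, jejunum and ileum), the large intestine (cecum, colon and rectum), the liver and the parotid salivary gland. The other 4 are from an adult (AD) lactating cow, of duodenum, jejunum, cecum and colon. There was 1 library per tissue and stage. All AD libraries were from a single cow, the NB libraries were from 3 calves, and which calf gave which NB library is not given in the sources used here. The muscle layer had been removed, and digestion differed. NB gut tissue went through EDTA and trypsin and then a mix of enzymes (reticulum, omasum, abomasum) or a lamina propria kit (intestine). AD duodenum and cecum went through a lamina propria kit, and AD jejunum and colon through a multi tissue kit. Stage, animal and digestion therefore cannot be told apart in any AD to NB comparison. Between AD tissues that went through different kits, tissue and digestion cannot be told apart either.

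Claudins are membrane proteins that span the membrane and meet their partners on the neighbouring cell to form the strands of the tight junction, which closes the gap between epithelial or endothelial cells. Some, such as CLDN1, CLDN3 and CLDN4, tighten the seal, whereas CLDN2 and CLDN15 form channels that let sodium and other cations pass between cells. CLDN18 is the claudin of the stomach, CLDN5 that of blood and lymph vessels, and CLDN7 is a partner of EPCAM along the lateral membrane; less is known of CLDN23. In the bovine gene list of RefSeq, CLDN4 and CLDN3 stand next to each other, between METTL27 and ABHD11.

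After filtering, 119798 barcodes were kept, of which 30113 were epithelial and 13887 were PECAM1 barcodes. The epithelial sets ran from 68 barcodes with 506149 UMIs in NB salivary gland to 9379 barcodes with 90239930 UMIs in NB omasum, and whole libraries from 17707625 to 129458578 UMIs. Any pair of libraries shared 2 to 35 barcode sequences (median 17 over 105 pairs), at most 0.483% of the smaller library. Leukocyte RNA was part of several epithelial sets. Barcodes with PTPRC, the leukocyte surface phosphatase, made up 0.0640 to 2.87% of them from NB reticulum to duodenum and 7.11 to 28.0% from NB jejunum to rectum. They made up 36.5% in NB liver, 54.4% in NB salivary gland and 45.8 to 83.7% in the AD libraries. Barcodes with COL1A2, a listed fibroblast marker, made up 35.0% in NB cecum, 37.2% in NB rectum, 13.5% in NB jejunum and 16.2% in NB salivary gland. They made up 2.01% (colon) to 7.84% (abomasum) of the other NB gut sets and at most 1.62% of the AD sets. COL1A2 barcodes were not left out in any setting. Levels are given as CPM, the UMIs of a gene per 1000000 UMIs of the set. All 11 leukocyte markers listed together summed to 17.4 to 1519 CPM in the NB gut sets, 738 CPM in liver, 3623 CPM in salivary gland and 4511 to 25518 CPM in the AD sets. The AD duodenum set had 6 of 15 listed enterocyte markers at 0, ALPI, ANPEP, SLC5A1, AQP8, SLC26A3 and CA4. The whole list summed to 78.1 CPM there against 50036 CPM in NB duodenum, so it is called by its rule and not as enterocytes. Levels were therefore also read with PTPRC barcodes left out, and those values are given beside many of the main ones, though not beside all that moved. Intervals are exact Poisson 95% intervals and cover counting error only; 3′ UMI counts do not grow with gene length, so CPM is set side by side between claudins, although how well the 3′ end of each gene was captured was not tested.

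The leading claudin changed along the tract. Together the 9 genes reached 534 CPM in NB reticulum and 479 CPM in NB omasum, and 236 CPM in NB abomasum. They reached 721, 934 and 614 CPM in NB duodenum, jejunum and ileum, and 315, 405 and 300.2 CPM in NB cecum, colon and rectum. CLDN4 made up 69.0 and 77.7% of these UMIs in reticulum and omasum, and CLDN18 made up 97.5% in abomasum. CLDN15 made up 46.7, 35.9 and 26.6% in duodenum, jejunum and ileum. From the jejunum to the rectum CLDN3 led in every library, with shares of 46.4% (NB jejunum), 53.4% (NB ileum), 66.5% (NB cecum), 55.3% (NB colon) and 74.2% (NB rectum). In NB abomasum 60.9% of all genes were at least 2-fold lower in epithelial than in PECAM1 barcodes with intervals apart. The median log2 ratio of all tested genes there was −1.35. Abomasum CPM, over the set and by cluster, is thus a share of UMIs and not an amount per cell. The AD sets summed to 33.6 CPM in duodenum, 704 CPM in jejunum, 417 CPM in cecum and 499 CPM in colon, with CLDN3 at 58.3 to 74.8%. Without PTPRC barcodes they summed to 150.1, 954, 583 and 870 CPM, with CLDN3 at 58.1 to 85%. The AD duodenum values rest on 28 UMIs of the 9 genes, in a set with PTPRC in 83.7% of its barcodes. Without PTPRC barcodes they rest on 20 UMIs, 17 of them CLDN3, too few to name a leading claudin of its epithelium.

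**Figure D1:**
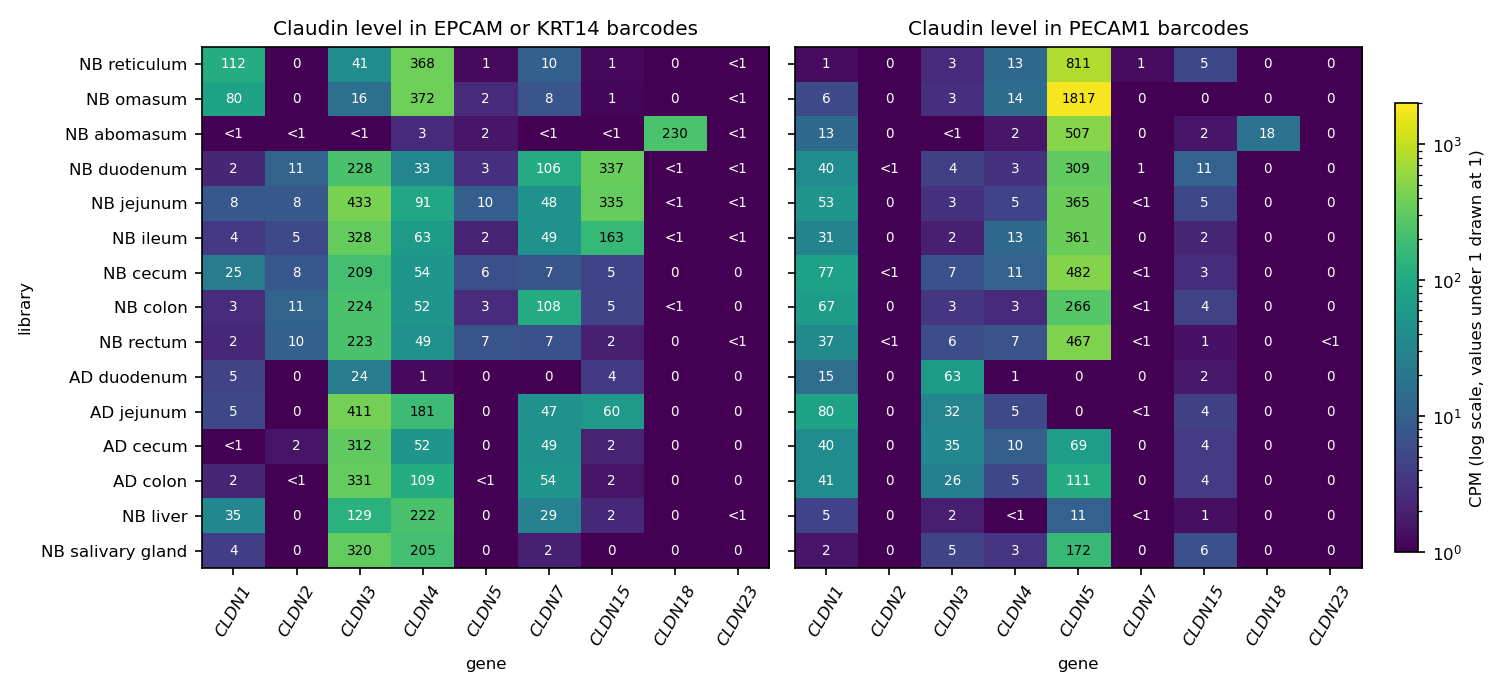
CPM of each of the 9 claudins (columns) in the EPCAM or KRT14 barcodes (left) and the PECAM1 barcodes (right) of the 15 libraries (rows), printed in each cell and shown by colour on a log scale, with values under 1 CPM drawn at 1. Read gene by gene across libraries, CLDN4 stood highest in the epithelium of reticulum and omasum and CLDN18 in abomasum (230 CPM). By the same reading CLDN15 stood highest in NB duodenum and jejunum (337 and 335 CPM) and CLDN5 in PECAM1 barcodes (up to 1817 CPM in omasum).

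In the forestomach, whose lining is a stratified epithelium like that of skin, CLDN4 and CLDN1 were the main claudins. CLDN4 stood at 372 CPM in NB omasum (interval 368 to 376) and 368 CPM in NB reticulum (364 to 373), which did not differ beyond counting error. CLDN1, which the barrier of skin needs, stood at 112 CPM in reticulum (109 to 114) and 79.7 CPM in omasum (77.8 to 81.5) and at 0.208 CPM in abomasum. CLDN3 was low here, 41.1 CPM in reticulum and 16.1 CPM in omasum, and CLDN2 and CLDN18 had no UMI in either library. A UMI of CLDN4 was found in 62.9% of the omasum epithelial barcodes and 23.1% when each was thinned to 1000 UMIs; only 3 omasum barcodes were leukocytes, too few for a background.

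The forestomach claudins also differed between clusters of epithelial barcodes, which were made without using any claudin gene and without PTPRC barcodes. In omasum CLDN4 was 768 CPM (753 to 784, 907 barcodes) in a differentiated keratinocyte-like cluster led by CNFN, SPINK5 and IVL, and 98.9 CPM (93.8 to 104, 1882 barcodes) in the cluster led by HPGD and RBP4. CLDN3 ran the other way, 2.10 against 20.6 CPM, and CLDN1 differed little between those clusters, 110 against 137 CPM. In reticulum CLDN4 was 674 CPM in the cluster led by SPINK5 and 48.0 CPM in the cluster led by RGS4 and LRP4, and CLDN1 was highest, at 337 CPM, in a cluster led by the chemokine CXCL3 and by CCN2. These cluster values describe single libraries, with no replicate check.

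CLDN18, the stomach claudin, was confined to NB abomasum among the epithelial sets at levels above 1 CPM. It stood at 230 CPM there (226 to 234, 14372 UMIs), and at 0.588, 0.353, 0.117 and 0.0905 CPM in NB duodenum, jejunum, ileum and colon, with no UMI in the other 10 libraries. A UMI was found in 83.4% of abomasum epithelial barcodes (22.6% when thinned to 1000 UMIs), against 7.69% of the 273 abomasum leukocytes (1.10% when thinned), with median depths of 12599 and 4489 UMIs. In CPM, abomasum leukocytes had 15.8 and abomasum PECAM1 barcodes 18.0. The files count the gene as a whole, so its stomach and lung isoforms cannot be told apart. Within abomasum CLDN18 was highest, at 1052 CPM (1019 to 1087, 461 barcodes), in a cluster led by GKN1 and TFF1, which are products of surface mucous cells. It was followed by 458 CPM in a cluster led by the division genes CENPF and TOP2A and 445 CPM in a goblet cell-like cluster, then by 304 CPM in a parietal cell-like cluster and 189 CPM in an enteroendocrine cell-like cluster. The cluster led by LYZ2 and the milk-clotting enzyme CYM had 109 CPM, and a fibroblast-like cluster, the lowest, had 88.3 CPM. In NB duodenum the goblet cell-like cluster had 8.19 CPM, against 0.588 CPM in the set. The enteroendocrine cell-like cluster (104 barcodes) was also the one with most CLDN3 and CLDN4 in this tissue, 49.9 and 81.8 CPM, against 0.848 and 2.56 CPM over the whole set.

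CLDN15, a sodium channel of the small intestine, marked the NB small intestine. Its level was 337 CPM in NB duodenum (331 to 343), 335 CPM in NB jejunum (326 to 345) and 163 CPM in NB ileum (155 to 172). In the NB large intestine it was 4.63 CPM in cecum, 4.80 CPM in colon and 1.94 CPM in rectum. Duodenum and jejunum did not differ beyond counting error, and the small and large intestine did not overlap. The 3 small intestinal libraries were 57.9-fold above the 3 large intestinal ones (log2 difference of CPM + 1 of 5.86, SE 0.47; exact two-sided permutation p = 0.1, the smallest that 3 against 3 libraries can give). Of the 9 claudins this was the only one with ranges apart and a difference of at least 2-fold; 1.75% of 14500 genes met the same rule in that direction and 4.33% in the other. The libraries are different gut segments, and the calf of each is not known. The SE and p of this comparison, for every claudin, therefore do not measure spread between animals. A UMI of CLDN15 was found in 74.5% of duodenum epithelial barcodes and in 5.84% of duodenum leukocytes (23.8 and 0.585% when thinned), at median depths of 12488.5 and 9126.5 UMIs. In AD jejunum CLDN15 stood at 60.2 CPM (50.1 to 71.7), 28.7-fold (15.5 to 58.9) above AD cecum and 38.0-fold (15.9 to 119) above AD colon. Without PTPRC barcodes these ratios were 52.1 (23.2 to 145) and 152 (26.8 to 6063), the latter against 1 UMI in colon. AD duodenum had 3.60 CPM (0.743 to 10.5), which overlapped with both.

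CLDN2, the water and cation pore, was found in the NB intestine and nearly nowhere else. It stood at 11.3, 8.27 and 5.29 CPM in NB duodenum, jejunum and ileum and at 7.77, 11.2 and 10.2 CPM in NB cecum, colon and rectum, and when these values were ranked by level, from duodenum (10.3 to 12.3) and colon to ileum (3.86 to 7.07), the intervals of neighbours overlapped. Reticulum, omasum, liver, salivary gland, AD duodenum and AD jejunum had no UMI, NB abomasum had 1 UMI, AD colon had 1 UMI (0.317 CPM) and AD cecum had 1.53 CPM. A UMI was seen in 12.3% of the NB duodenum epithelial barcodes (1.16% thinned) and in 0 of 514 leukocytes. CLDN23 did not exceed 0.783 CPM, a single UMI in NB liver, in any epithelial set, and was not measurable at this depth.

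**Figure D2:**
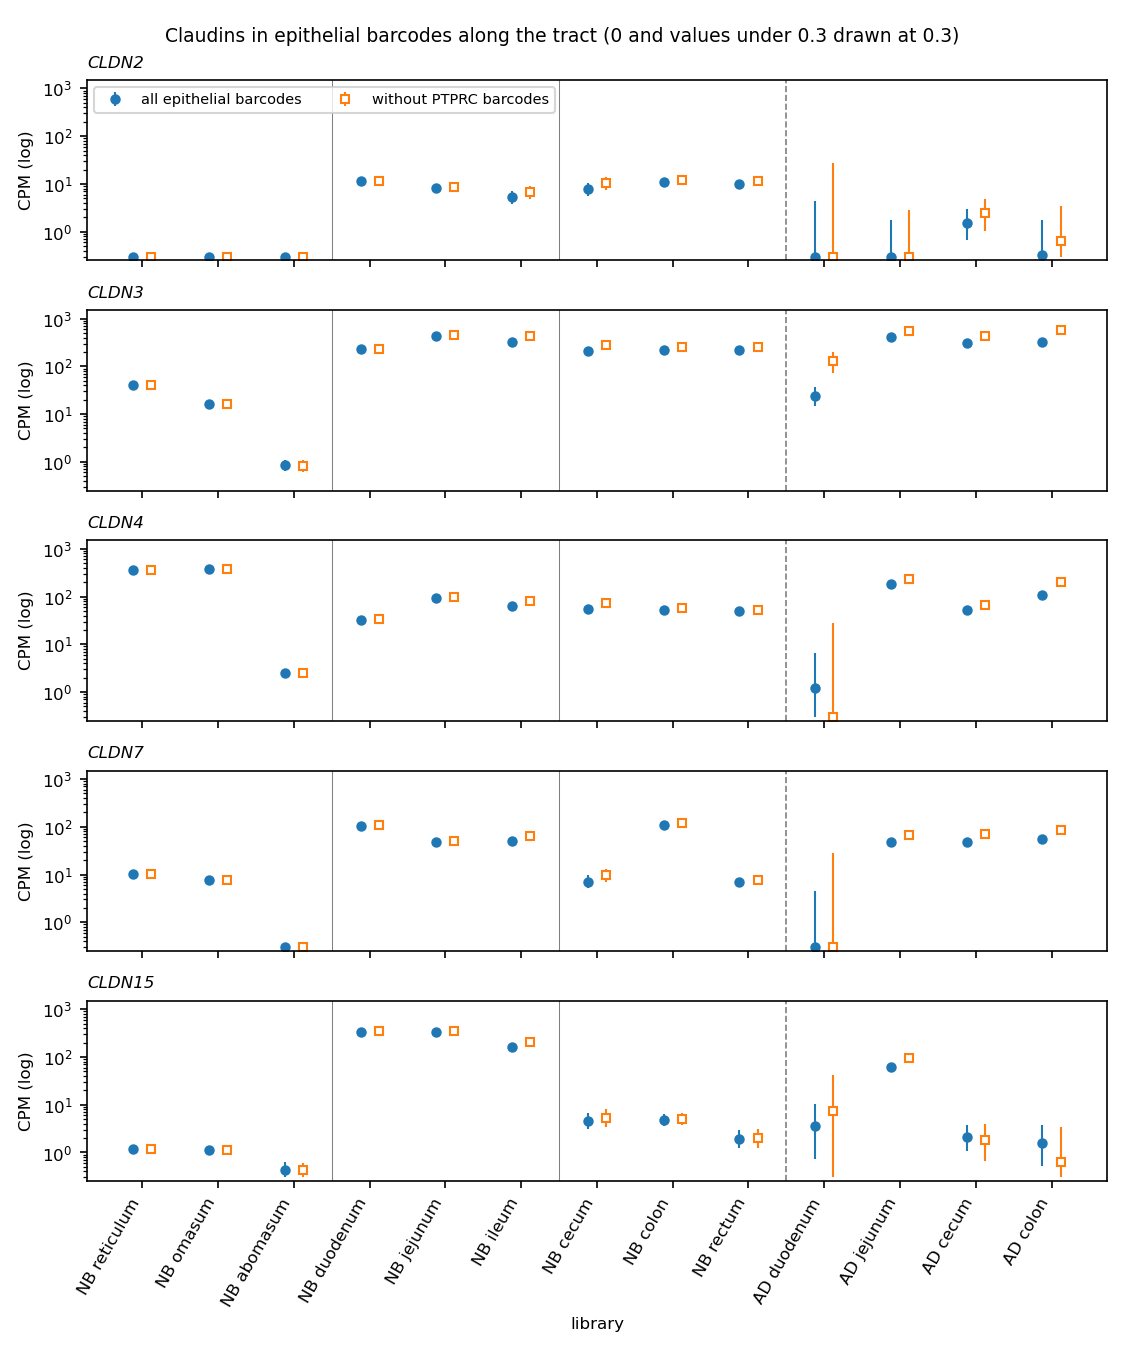
CPM (log axis) of CLDN2, CLDN3, CLDN4, CLDN7 and CLDN15 in all epithelial barcodes (filled circles) and in those without PTPRC (open squares) of the gut libraries, with exact Poisson 95% intervals; solid lines part stomach, small and large intestine, and the dashed line parts NB from AD. CLDN15 was 163 CPM in NB ileum and 4.63 CPM in NB cecum, and CLDN7 stood at 7.11 CPM in NB cecum, 108 CPM in NB colon and 6.81 CPM in NB rectum.

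CLDN3, a sealing claudin and a receptor of Clostridium perfringens enterotoxin, was high along the whole NB intestine. It stood at 228, 433 and 328 CPM in NB duodenum, jejunum and ileum and at 209, 224 and 223 CPM in NB cecum, colon and rectum. The ranges were apart (228 to 433 against 209 to 224 CPM), as for 8.03% of the 14500 genes in this direction. The log2 difference was 0.54 (SE 0.27, 1.46-fold; exact p = 0.1), and without PTPRC barcodes the ranges overlapped (233 to 460 against 249 to 283 CPM). CLDN3 was 41.1 CPM or lower in reticulum, omasum and abomasum. It was 129 CPM in NB liver (110 to 150) and 320 CPM in NB salivary gland (273 to 373), and 180 and 725 CPM in those glands without PTPRC barcodes. A UMI was found in 72.7% of NB jejunum epithelial barcodes and 2.81% of its leukocytes (27.4 and 0.393% thinned), at median depths of 11925 and 9750.5 UMIs. In liver the set held all 5 listed hepatocyte and all 6 listed cholangiocyte markers, at 1636 and 1675 CPM summed, so markers of both cell types were in it.

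CLDN4, the other enterotoxin receptor, was lower than CLDN3 in every intestinal library. It measured 32.6, 91.2 and 62.6 CPM in NB duodenum, jejunum and ileum and 54.2, 52.1 and 48.8 CPM in cecum, colon and rectum. The large intestine lay within the range of the small (log2 difference 0.14, SE 0.43; exact p = 0.7). NB liver had 222 CPM (197 to 250), NB salivary gland 205 CPM (168 to 249) and AD jejunum 181 CPM (163 to 200), which overlapped with their neighbours in that order. Without PTPRC barcodes the order was salivary gland, 534 CPM (435 to 649), liver, 307 CPM (272 to 347), and AD jejunum, 235 CPM (209 to 263), with intervals apart. In liver CLDN4 made up 53.1% of the claudin UMIs.

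CLDN7 did not follow the order of the tract. It stood at 106, 47.8 and 49.3 CPM in NB duodenum, jejunum and ileum and at 7.11 CPM in NB cecum, stood at 108 CPM in NB colon and was 6.81 CPM in NB rectum. NB colon exceeded NB cecum 15.1-fold (11.2 to 21.0) and NB rectum 15.8-fold (12.5 to 20.2), and 12.5-fold and 15.3-fold without PTPRC barcodes. Of 11961 and 12361 genes, 5.46 and 5.57% were at least 2-fold higher in NB colon with intervals apart in those comparisons, and 39 and 47 genes reached the ratio of CLDN7. COL1A2 had a UMI in 35.0 and 37.2% of the NB cecum and NB rectum epithelial barcodes, against 2.01% in NB colon. Its bearing on these ratios was not tested. In the AD cow the step was not seen: AD colon stood at 54.5 CPM and AD cecum at 48.7 CPM, a ratio of 1.12 (0.917 to 1.36). In NB colon the level was spread over clusters. The enterocyte-like cluster had 145 CPM, the stem or transit amplifying cell-like clusters 143 and 135 CPM and the goblet cell-like cluster 92.5 CPM. The enterocyte-like clusters of NB cecum and NB rectum had 13.5 and 14.8 CPM.

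**Figure D3:**
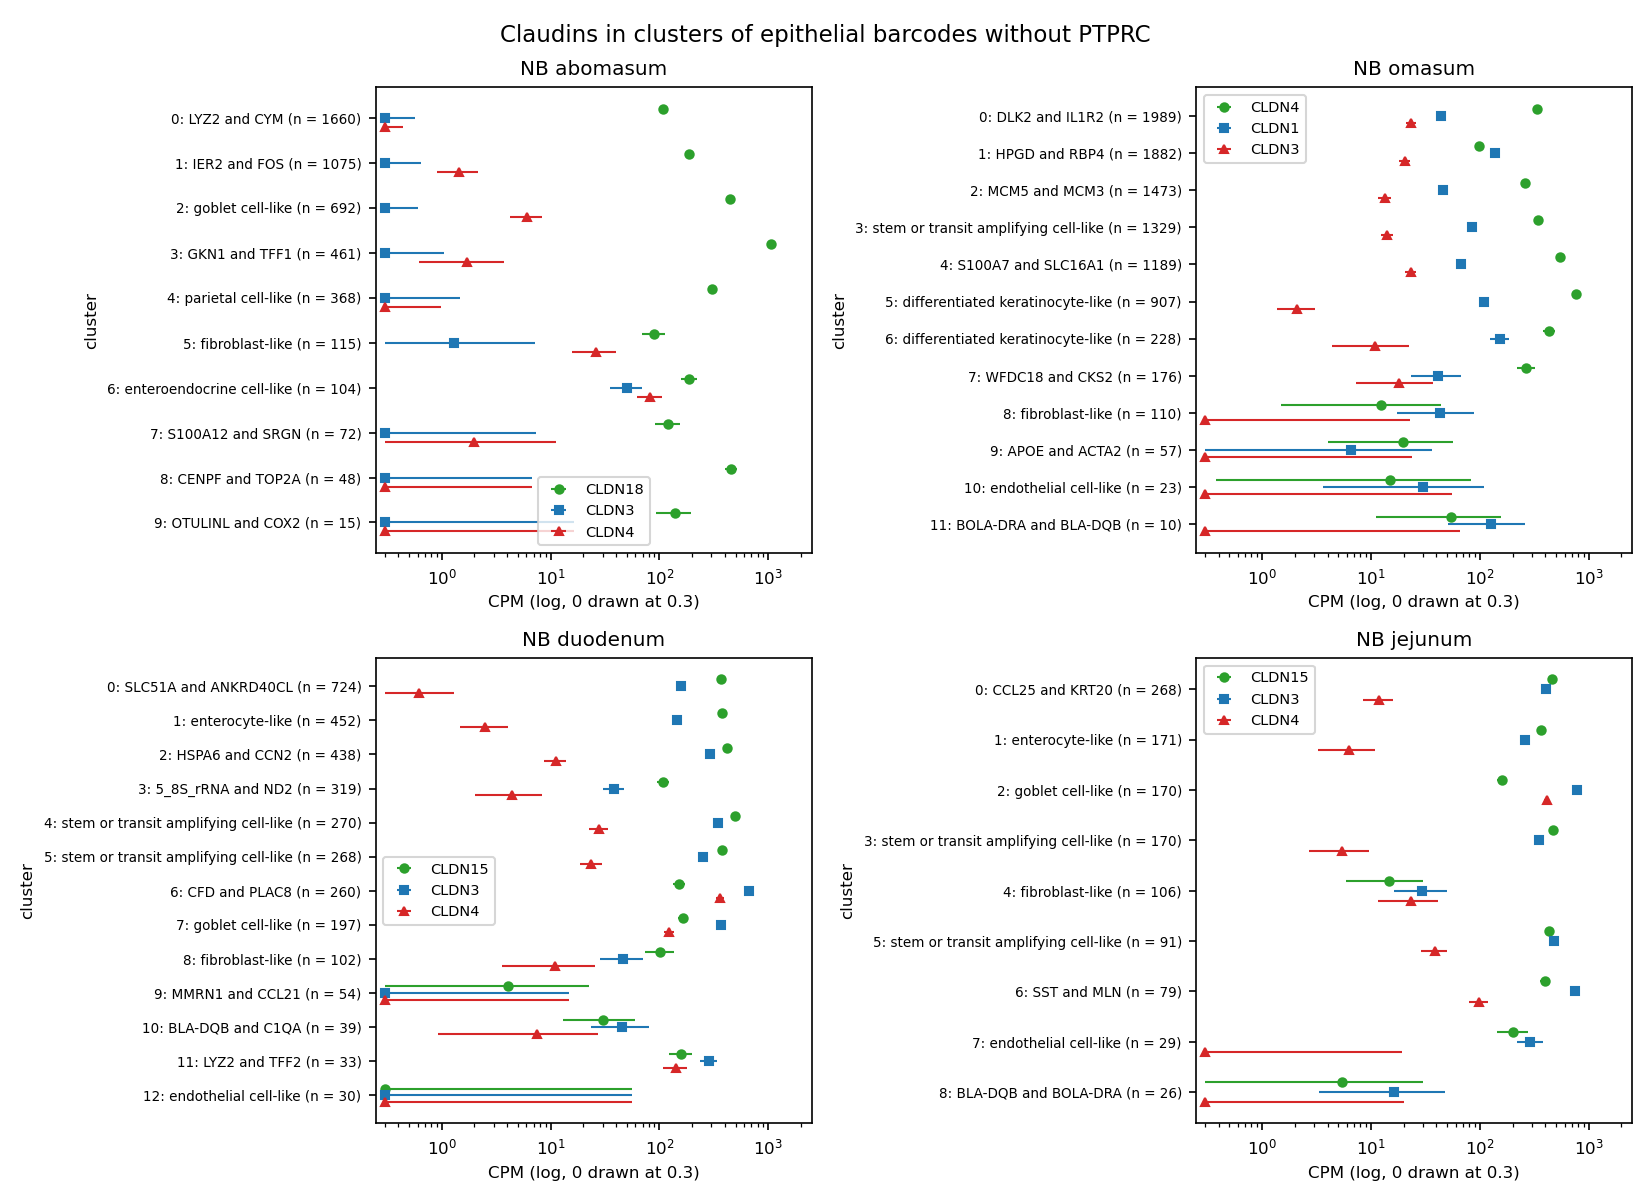
CPM (log axis) of the leading claudins in clusters of epithelial barcodes without PTPRC, for NB abomasum, omasum, duodenum and jejunum, with exact Poisson 95% intervals; n is the number of barcodes. In NB jejunum CLDN4 was 411 CPM in the goblet cell-like cluster and 6.26 CPM in the enterocyte-like cluster, and CLDN15 ran from 159 to 368 CPM between the same clusters.

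Inside NB duodenum and jejunum CLDN4 was higher in goblet cell-like and CLDN15 in enterocyte-like clusters, and in NB ileum CLDN4 was highest in the enterocyte-like one. In NB jejunum the goblet cell-like cluster (170 barcodes) had 411 CPM of CLDN4 (386 to 437), 774 CPM of CLDN3, 159 CPM of CLDN15 and 0.394 CPM of CLDN2, from 1 UMI. The enterocyte-like cluster (171 barcodes) had 6.26 CPM of CLDN4 (3.24 to 10.9), 258 CPM of CLDN3, 368 CPM of CLDN15 and 15.1 CPM of CLDN2. NB duodenum had the same order, with CLDN4 at 123 CPM in its goblet cell-like and 2.51 CPM in its enterocyte-like cluster, and CLDN15 at 164 and 376 CPM. That goblet cell-like cluster also had the hormone genes MLN and GIP among its leading genes. The highest CLDN4 of NB duodenum, 359 CPM (332 to 388, 260 barcodes), together with 660 CPM of CLDN3, was in a cluster led by CFD and PLAC8 that also had GUCA2B and SPIB among its leading genes. In NB ileum the enterocyte-like cluster (24 barcodes) had the highest CLDN4 and CLDN3 of its library, 301 CPM (239 to 375) and 816 CPM, with CLDN15 at 150.5 CPM. In NB rectum the goblet cell-like cluster again had more CLDN4 than the enterocyte-like cluster, 340 against 23.8 CPM, but in NB colon the order was turned, 26.3 against 65.5 CPM. Stem or transit amplifying cell-like clusters carried the highest CLDN15 of duodenum and jejunum, 493 and 471 CPM. In NB ileum the highest, 287 CPM, was in an unnamed cluster led by ADAMDEC1 and CCL11. The same genes led a fibroblast-like cluster of the NB jejunum PECAM1 barcodes.

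Dividing barcodes were compared with the rest in the 6 NB intestinal libraries, by a UMI of MKI67, the proliferation marker. CLDN4 was lower with MKI67 in 5 of 6 libraries. Its levels with and without MKI67 were 51.7 and 104 CPM for jejunum, 25.8 and 91.8 CPM for ileum, and 41.3 and 57.0 CPM for cecum. They were 25.4 and 57.9 CPM for colon and 22.7 and 52.4 CPM for rectum, and the order was turned in duodenum, 39.2 and 31.5 CPM. The mean log2 ratio was −0.88 (SD 0.72, n = 6; exact sign-flip permutation p = 0.0625, Benjamini-Hochberg adjusted p = 0.149), which did not pass 0.05. CLDN3 (mean −0.39, SD 0.53), CLDN7 (−0.31, SD 0.62), CLDN1 (−0.25, SD 0.80), CLDN15 (−0.07, SD 0.36) and CLDN2 (0.13, SD 0.36) were lower in 3, 4, 4, 2 and 4 of 6 libraries, with adjusted p in the exact test of 0.390, 0.424, 0.662, 0.814 and 0.633. CLDN5 was lower in 6 of 6 libraries, but with 18 UMIs in NB ileum, under the minimum of 20 in every library, it was not tested. None of the 6 tested members moved one way in all 6 libraries, where 22.6% of 9014 genes were higher and 8.54% lower. No gene passed, since the smallest adjusted p was 0.10, shared by 2811 genes at the smallest p of 0.03125. The libraries are different gut segments and the calf of each is not known, so SD and p do not measure spread between animals. MKI67 barcodes were deeper, with median UMIs of 10371.5 to 15817 against 7650.5 to 12175.5 for the others. In ileum, colon and rectum 39.7, 25.6 and 35.7% of them had PTPRC, against 18.8, 12 and 13.2% of the others. In cecum the shares were 32.9 and 27.1%. The order was turned in duodenum, 2.36 against 2.94%, and in jejunum, 2.68 against 8.14%. Without PTPRC barcodes the mean log2 ratio of CLDN4 was −0.62 (lower in 5 of 6 libraries; exact sign-flip permutation test, adjusted p = 0.224). With MKI67 called after each barcode was thinned to 2000 UMIs it was −1.54 (lower in 5 of 6; exact test, adjusted p = 0.225). CLDN3 was then lower in 6 of 6 libraries, with a mean of −0.78 (exact test, adjusted p = 0.12). The share of all 8987 genes tested that were lower in all 6 under this setting is not given here. The CLDN3 count thus has no background.

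Between stages, AD and NB claudin levels were set side by side in 4 tissues, called where they differed at least 2-fold with intervals apart. In duodenum 0 claudins were higher and 5 lower in AD of 8 tested, beside 25% of all genes higher and 16.3% lower. In jejunum 0 were higher and 3 lower of 7 (23.6 and 8.82% of genes), in cecum 1 was higher and 3 lower of 7 (12.4 and 13.4%), and in colon 1 was higher and 1 lower of 7 (24.4 and 7.82%). Without PTPRC barcodes the counts were 1 higher and 2 lower of 8 in duodenum (8.56 and 8.16% of genes), and 1 and 3 of 7 in jejunum (20.2 and 8.26%). They were 1 and 2 of 6 in cecum (10.1 and 12.7%) and 2 and 2 of 6 in colon (20.6 and 5.78%). With 1 library on each side there is no replicate check, and fewer cells of a type cannot be told apart from less RNA per cell.

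Of the pore-forming claudins, CLDN2 was called lower in AD in all 4 tissues and CLDN15 in duodenum and jejunum. Without PTPRC barcodes the call of CLDN2 in duodenum was lost, with 0 UMIs in AD (3 UMIs would be 22.5 CPM) against 11.4 CPM in NB. CLDN2 stood at 0.197 of its NB level in cecum (0.0802 to 0.420) and 0.0282 in colon from 1 UMI (0.000709 to 0.160). Without PTPRC barcodes these ratios were 0.234 (0.0951 to 0.501) and 0.0520 (0.00131 to 0.295). With no UMI in the full AD sets, CLDN2 was at least 3.13-fold lower in duodenum and at least 5.77-fold lower in jejunum, against a floor of 3 UMIs. The jejunum bound was 3.68-fold without PTPRC barcodes. CLDN15 in jejunum was 60.2 CPM in AD and 335 CPM in NB, a ratio of 0.180 (0.149 to 0.214), or 95.5 and 356 CPM without PTPRC barcodes, a ratio of 0.268 (0.222 to 0.321). The AD enterocyte-like cluster of jejunum (22 barcodes) had 204 CPM (162 to 254), against 368 CPM in the NB one. The AD tuft cell-like cluster (67 barcodes) had 2.98 CPM, and no tuft cell-like cluster was named in NB jejunum. Of the 273 AD jejunum epithelial barcodes 125 had PTPRC, and the 67 were among the rest. In the large intestine CLDN15 was low at both stages, 2.10 and 4.63 CPM in AD and NB cecum and 1.58 and 4.80 CPM in AD and NB colon. The ratios were 0.454 (0.204 to 0.940) in cecum and 0.330 (0.103 to 0.820) in colon, below 1 in both but not called, since the intervals of the levels overlapped. Without PTPRC barcodes CLDN15 was called lower in AD colon, 0.627 CPM from 1 UMI against 5.01 CPM.

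CLDN3 and CLDN4 were not called lower in AD outside the duodenum. CLDN3 ratios were 0.949 (0.883 to 1.02) in jejunum, 1.49 (1.38 to 1.61) in cecum and 1.48 (1.37 to 1.59) in colon. Leaving out PTPRC barcodes gave 1.203 (1.111 to 1.301) in jejunum, 1.56 (1.44 to 1.68) in cecum and 2.34 (2.16 to 2.52) in colon. The jejunum interval thus held 1 in the full sets and lay above 1 without PTPRC barcodes, though the ratio was under 2-fold and not called. CLDN4 ratios were 1.98 (1.76 to 2.22) in jejunum, 0.961 (0.815 to 1.13) in cecum and 2.10 (1.83 to 2.40) in colon. Without PTPRC barcodes they were 2.44 (2.14 to 2.77) in jejunum and 3.49 (3.03 to 4.01) in colon. The call of CLDN4 in colon was lost under most other settings, down to a log2 ratio of 0.21 with a limit of 10% mitochondrial UMIs. CLDN7 was 6.85-fold higher in AD cecum (4.94 to 9.69), 48.7 against 7.11 CPM, and 7.31-fold (5.22 to 10.5) without PTPRC barcodes. COL1A2 had a UMI in 35.0% of the NB and 0% of the AD cecum epithelial barcodes, and its bearing on this ratio was not tested. The CLDN7 ratio was 0.989 (0.793 to 1.22) in jejunum and 0.507 (0.429 to 0.595) in colon. Without PTPRC barcodes it was 1.33 (1.05 to 1.67) and 0.728 (0.606 to 0.869). CLDN1 was lower in AD cecum, 0.573 against 25.1 CPM, a ratio of 0.0228 from 3 UMIs (0.00465 to 0.0679), but without PTPRC barcodes it was 0 against 2.33 CPM and no longer called. CLDN5 had no UMI in the AD epithelial sets of jejunum and cecum, at least 6.70-fold and 11.3-fold lower than in NB against the same floor. Without PTPRC barcodes these bounds were 4.13-fold and 5.58-fold. In the full sets of both tissues the endothelial gene CDH5 had a UMI in 3.51 and 2.12% of the NB barcodes. It had one in 0 of the 273 and 633 AD barcodes. In AD jejunum the tuft cell-like cluster had the highest CLDN3 and CLDN4 of the library, 1011 CPM (907 to 1125) and 519 CPM (445 to 602). No tuft cell-like cluster was named in NB jejunum, so the jejunum ratios set differently made up sets side by side. The bearing of this on those ratios was not tested. In AD colon the enterocyte-like cluster had 852 CPM of CLDN3 and 347 CPM of CLDN4.

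AD duodenum stood apart. Its 166 epithelial barcodes, 83.7% of them with PTPRC, had 24.0 CPM of CLDN3 (14.7 to 37.1), 1.2 CPM of CLDN4 from 1 UMI, 3.60 CPM of CLDN15 from 3 UMIs and no UMI of CLDN7 in 832418 UMIs. Against NB duodenum these were ratios of 0.105 (0.0642 to 0.163) for CLDN3, 0.0369 (0.000933 to 0.206) for CLDN4 and 0.0107 (0.0022 to 0.0313) for CLDN15. CLDN7 was at least 29.4-fold lower against a floor of 3 UMIs. The log2 ratio of CLDN4, −4.76, turned to 0.55 without a filter on barcodes and to 0.13 with doublets kept. Without PTPRC barcodes, 27 barcodes with 133202 UMIs remained, CLDN3 was 128 CPM against 233 CPM and was no longer called, nor was CLDN4, with 0 UMIs (3 UMIs would be 22.5 CPM) against 33.1 CPM. CLDN7 was still called, at least 4.79-fold lower. CLDN15 was 7.51 against 344 CPM and still called. CLDN1 was then called higher, 15.01 against 0.477 CPM, from 2 AD UMIs.

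Across the 9 genes and 15 libraries, 51 pairs of gene and library were higher in epithelial and 25 higher in PECAM1 barcodes by at least 2-fold with intervals apart. By library, the claudins higher in epithelial and higher in PECAM1 barcodes, with the shares of all genes in the same order, were 4 and 1 of 6 tested in NB reticulum (10.5 and 17.4%). They were 2 and 1 of 6 in NB omasum (6.9 and 15.2%) and 1 and 3 of 6 in NB abomasum (6.82 and 60.9%). In the NB intestine they were 6 and 2 of 8 in duodenum (15.5 and 32.2%) and 5 and 2 of 7 in jejunum (14.6 and 29.8%) and ileum (11.5 and 23.5%). Further down they were 4 and 2 of 7 in NB cecum (11.5 and 15.1%), NB colon (12 and 22.2%) and NB rectum (14.9 and 19.8%). In the AD sets they were 0 and 1 of 2 in duodenum (9 and 3%), 4 and 1 of 5 in jejunum (20.8 and 9.56%), and 3 and 2 of 5 in cecum (14 and 10%) and colon (14.5 and 9.09%). In the glands they were 4 and 1 of 6 in liver (21.7 and 12.1%) and 2 and 1 of 3 in salivary gland (4.97 and 5.1%). CLDN2 was higher in epithelium in 6 of 6 libraries tested, CLDN4 in 13 of 14, CLDN3 in 12 of 15, and CLDN7 in 11 of 12. CLDN15 was higher in epithelium in 4 of 11, the 3 NB small intestinal libraries and AD jejunum. CLDN1 went both ways: it was higher in epithelium in reticulum, omasum and liver, and higher in PECAM1 barcodes in 10 of 14 libraries, among them every NB library from abomasum to rectum. Without PTPRC barcodes it was higher in PECAM1 barcodes in 7 of 10, and NB colon (0.511 against 8.04 CPM), AD cecum and AD colon had too few UMIs to be tested. Within the NB PECAM1 barcodes without PTPRC, CLDN1 was highest in the cluster with the macrophage gene C1QA at 1000 CPM or more, from 30.2 CPM in colon to 253 CPM in cecum between abomasum and rectum. The other clusters there had 5.83 CPM or lower, except 40.6 CPM in jejunum and 26.0 CPM in cecum in clusters led by CST3. CLDN3 was higher in PECAM1 barcodes in AD duodenum alone, 63.3 against 24.0 CPM, which turned without PTPRC barcodes, 113 against 128 CPM. The AD duodenum PECAM1 barcodes without PTPRC formed a single leukocyte-like cluster (128 barcodes) with JCHAIN, a listed leukocyte marker, at 163723 CPM. Leaving out PTPRC barcodes therefore did not clear leukocytes from that set.

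CLDN5, the endothelial claudin, stood far higher in PECAM1 than in epithelial barcodes. It stood at 811 CPM in NB reticulum and 1817 CPM in omasum, 507 CPM in abomasum, 309, 365 and 361 CPM in duodenum, jejunum and ileum, and 482, 266 and 467 CPM in cecum, colon and rectum. The AD sets had no UMI in duodenum and jejunum (3 UMIs would be 1.0 and 1.1 CPM), 68.6 CPM in cecum and 111 CPM in colon, NB liver had 11 CPM and NB salivary gland 172 CPM. In epithelial barcodes it did not exceed 9.61 CPM, although the large omasum set still held 221 UMIs against 627 in its PECAM1 barcodes. Among clusters of epithelial barcodes it was highest in endothelial cell-like ones in omasum (2023 CPM), jejunum (513 CPM) and duodenum (395 CPM). In other libraries other clusters led, such as one with ACTA2 and TPM2 in reticulum (314 CPM), one with S100A12 and SRGN in abomasum (91.8 CPM) and a leukocyte-like one in colon (47.5 CPM). CLDN5 was higher in PECAM1 than in epithelial barcodes in all 13 libraries where it was tested, from at least 4.68-fold in liver to 742-fold in omasum, and in no library the other way.

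The PECAM1 sets were not all endothelium. CDH5 (VE-cadherin), a defining endothelial gene, had a UMI in 32.2 to 71.9% of the barcodes of NB gut sets. It had one in 0.222% in AD duodenum, 0% in AD jejunum, 10.1 and 13.8% in AD cecum and colon, 4.46% in liver and 11.2% in salivary gland. In those 6 sets 68.8 to 91.7% of the barcodes had PTPRC. Of 8 listed endothelial markers TIE1 and ERG had no UMI in AD duodenum, where CDH5 had 1 UMI and VWF 4, and CDH5, KDR, TIE1 and ERG had none in AD jejunum. Without PTPRC barcodes CLDN5 was 142 CPM in AD cecum, 262 CPM in AD colon, 159 CPM in liver and 973 CPM in salivary gland, and 410 to 1042 CPM in the NB intestine. Among PECAM1 barcodes without PTPRC, those with a UMI of CDH5 had 772 CPM against 24.8 CPM of the others in AD cecum, 675 CPM against 0 in AD colon and 1032 against 39.2 CPM in liver. In omasum it was 1831 against 1770 CPM, which did not differ beyond counting error. Of 12 libraries with at least 10 barcodes on each side and 20 UMIs over both, 9 were higher with CDH5, with a median of 2.75-fold. The split was chosen after these values were seen.

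**Figure D4:**
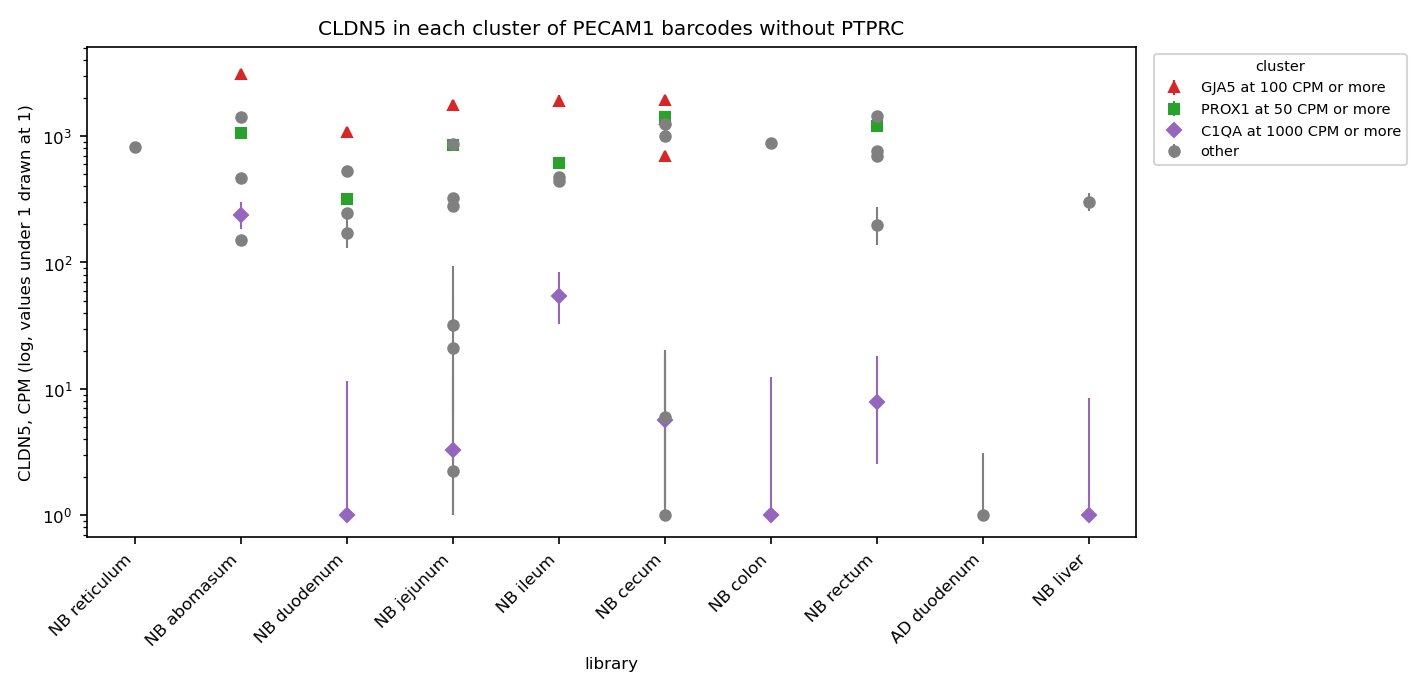
CLDN5 CPM (log axis, values under 1 drawn at 1) in each cluster of PECAM1 barcodes without PTPRC, by library, with exact Poisson 95% intervals; colour marks clusters with GJA5, PROX1 or C1QA past the levels in the key. The 7 clusters with GJA5 ran from 701 to 3122 CPM and the 8 with C1QA from 0 to 238 CPM.

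CLDN5 levels were also read by cluster of PECAM1 barcodes. In clusters of PECAM1 barcodes with GJA5, the connexin of arteries, at 100 CPM or more, CLDN5 had a median of 1767 CPM (701 to 3122, 7 clusters of 5 libraries). Those with PROX1, the regulator of lymphatic identity, at 50 CPM or more had a median of 957 CPM (320 to 1414, 6 clusters), and the ranges of these 2 kinds overlapped. Those with C1QA, a complement gene of macrophages, at 1000 CPM or more had a median of 4.44 CPM (0 to 238, 8 clusters), and the other 26 had 385 CPM (0 to 1446). Of 6 libraries with at least 2 clusters carrying 4 or more endothelial markers, a GJA5 cluster had the highest CLDN5 in 5. In NB cecum a GJA5 cluster was also the lowest of them, at 701 CPM. In NB rectum no cluster reached 100 CPM of GJA5, and the one nearest to it, at 97.0 CPM, had the lowest CLDN5 of them, 697 CPM. The highest and lowest of those clusters differed 20.9-fold in abomasum, 6.33-fold in jejunum, 6.30-fold in duodenum, 4.29-fold in ileum, 2.77-fold in cecum and 2.08-fold in rectum. The genes and levels that divide these clusters were set after the values were seen, and the differences are given without a test.

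CLDN1 in most of the intestine was higher in leukocytes than in epithelium, and highest in those with a macrophage receptor. Its level in intestinal epithelial sets was 25.1 CPM in NB cecum and 8.19 CPM or lower elsewhere. Without PTPRC barcodes it was 2.33 CPM in NB cecum, 1.52 CPM in NB jejunum and 15.01 CPM in AD duodenum (1.82 to 54.2, from 2 UMIs), which overlapped with its leukocytes, and 112, 79.6 and 44.9 CPM in reticulum, omasum and liver. In leukocyte barcodes of the NB intestine it was 120, 115, 16.4, 85.0, 22.5 and 28.2 CPM from duodenum to rectum. In those of the AD cow it was 17.5, 63.3, 3.73 and 4.06 CPM in duodenum, jejunum, cecum and colon. Leukocytes were split by a UMI of CSF1R, the macrophage growth factor receptor. Libraries needed at least 10 barcodes on each side and 20 UMIs of CLDN1 over both. NB salivary gland fell under the UMI minimum, with 9 UMIs of CLDN1 in 2011 leukocyte barcodes (0.701 CPM). CLDN1 was higher with CSF1R in all 12 libraries that met both limits, with intervals apart. The fold ran from 3.0 in liver to 534 in AD colon (median 10.1). The levels with and without CSF1R were 164 and 0.307 CPM in AD colon, 179 and 0.838 CPM in AD cecum, and 187 and 12.9 CPM in AD jejunum. They were 189 and 43.2 CPM in NB duodenum and 216 and 23.7 CPM in NB cecum.

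CLDN3 was also found outside the epithelium, in barcodes with TNFRSF17, the BCMA receptor of plasma cells. Libraries again needed at least 10 barcodes on each side and 20 UMIs, here of CLDN3, over both. Among barcodes without EPCAM, KRT14 or PECAM1, CLDN3 was higher with a UMI of TNFRSF17 in 7 of 10 libraries, with intervals apart. The fold in these 7 ran from 2.88 in NB colon to 91.2 in AD duodenum. The levels with and without were 128 and 1.40 CPM in AD duodenum, 98.0 and 3.32 CPM in AD jejunum, 72.0 and 1.17 CPM in AD cecum, and 92.6 and 2.38 CPM in AD colon. They were 186 and 8.08 CPM in NB cecum and 86.4 and 0.968 CPM in NB liver. NB ileum had 5.37 and 4.42 CPM. NB jejunum and NB rectum had no UMI of CLDN3 with TNFRSF17, against 7.46 and 7.27 CPM without. With TNFRSF17, 3 UMIs would already exceed those levels in both, so a lower level could not be shown. CLDN4 did not come with it: AD duodenum barcodes with TNFRSF17 held 802 UMIs of CLDN3, 3 of CLDN4 and 0 of CLDN7. CLDN4 was 0.374% of CLDN3 there, 1.19% in AD jejunum, 0% in AD cecum and AD colon and 5.57% in NB cecum. In the epithelial barcodes without PTPRC it was 42.5% in AD jejunum, 15.5% in AD cecum, 34.5% in AD colon and 25.8% in NB cecum. In AD duodenum the epithelial barcodes without PTPRC held 17 UMIs of CLDN3 and 0 of CLDN4, too few to set against the 0.374%. CLDN3 in AD PECAM1 barcodes was 63.3, 31.9, 34.9 and 26.3 CPM in duodenum, jejunum, cecum and colon, against 6.82 CPM or lower in the NB gut. Both splits were chosen after the values were seen.

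**Figure D5:**
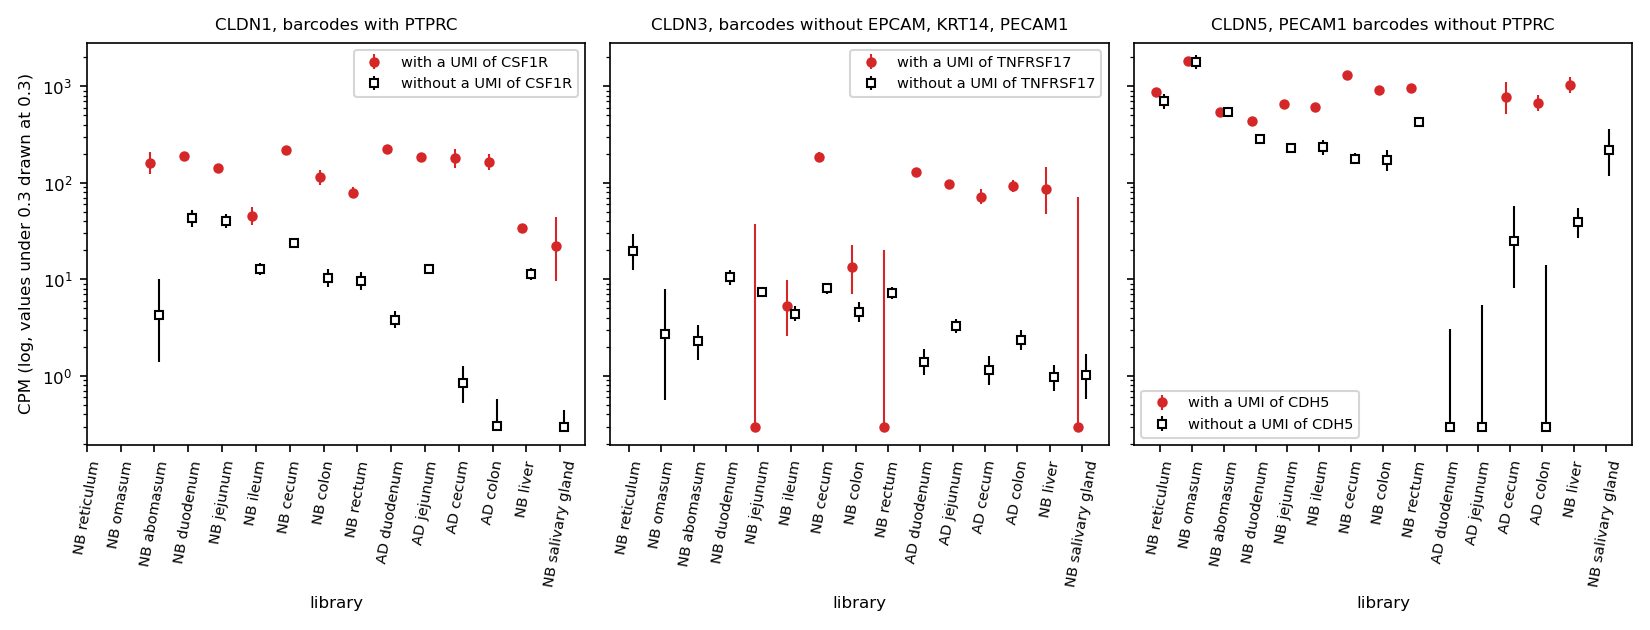
CPM (log axis) of CLDN1 in PTPRC barcodes with and without CSF1R, CLDN3 in barcodes without epithelial or PECAM1 markers with and without TNFRSF17, and CLDN5 in PECAM1 barcodes without PTPRC with and without CDH5, by library, with exact Poisson 95% intervals. CLDN1 was higher with CSF1R in 12 of 12 libraries, CLDN3 with TNFRSF17 in 7 of 10 and CLDN5 with CDH5 in 9 of 12. Only libraries with at least 10 barcodes on each side and 20 UMIs of the claudin over both were counted.

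The other genes of the tight junction were read from a list of 26 (25 in the files, BVES without a UMI). In epithelial against PECAM1 barcodes, 5 of 23 tested were higher and 10 lower in NB reticulum (all genes 10.5 and 17.4%), 4 and 7 of 24 in NB omasum (6.9 and 15.2%) and 9 and 10 of 23 in NB abomasum (6.82 and 60.9%). The median log2 ratio in NB reticulum was −0.87 (all genes −0.38). In the NB small intestine they were 10 and 8 of 23 in duodenum (15.5 and 32.2%), 9 and 9 of 23 in jejunum (14.6 and 29.8%) and 8 and 8 of 20 in ileum (11.5 and 23.5%). In the NB large intestine they were 11 and 7 of 24 in cecum (11.5 and 15.1%), 11 and 6 of 23 in colon (12 and 22.2%) and 13 and 7 of 24 in rectum (14.9 and 19.8%). The median in NB rectum was 1.50 (all genes −0.28). In AD they were 0 and 0 of 3 in duodenum (9 and 3%), 14 and 1 of 16 in jejunum (20.8 and 9.56%), 12 and 0 of 18 in cecum (14 and 10%) and 11 and 3 of 20 in colon (14.5 and 9.09%). The glands had 13 and 1 of 17 in liver (21.7 and 12.1%) and 1 and 0 of 2 in salivary gland (4.97 and 5.1%). The junction genes with the highest ratios were most often CGN (cingulin), followed by TJP3, MARVELD3 and CXADR, and those with the lowest were JAM2 and ESAM, adhesion molecules of vessels. JAM2 had a median of 2.08 CPM in epithelial and 181 CPM in PECAM1 barcodes, and ESAM 1.88 and 101 CPM. Between NB small and large intestine 0 were higher and 1 lower of 24 by at least 2-fold with ranges apart (all genes 1.75 and 4.33%). With MKI67 0 were higher and 5 lower of 15 in all 6 libraries (all genes 22.6 and 8.54%). Between AD and NB, 1 was higher and 12 lower of 23 in duodenum (all genes 25 and 16.3%) and 5 and 1 of 22 in jejunum (23.6 and 8.82%). They were 2 and 4 of 23 in cecum (12.4 and 13.4%) and 6 and 1 of 23 in colon (24.4 and 7.82%). Without PTPRC barcodes these counts were 0 and 3 of 23 in duodenum (8.56 and 8.16%), 10 and 1 of 21 in jejunum (20.2 and 8.26%), 3 and 2 of 21 in cecum (10.1 and 12.7%) and 11 and 0 of 21 in colon (20.6 and 5.78%).

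Of the other 13 claudins in the files, few reached 20 CPM in an epithelial set. CLDN10, a channel-forming claudin of glands and kidney, stood at 267 CPM in NB salivary gland, from 68 barcodes, and reached 20 CPM in 3 libraries. CLDN8 and CLDN6 were at 25.7 and 21.7 CPM in salivary gland, CLDN12 at up to 17.2 CPM in liver and CLDN19 at up to 6.39 CPM in NB duodenum. CLDN9, CLDN17, CLDN20, CLDN25 and CLDN34 had no UMI in any epithelial set. CLDN11 was at 18.0 CPM in the PECAM1 barcodes of abomasum and at most 0.530 CPM in epithelium.

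The genes whose epithelial levels were most like CLDN1, CLDN3, CLDN4, CLDN15 and CLDN18 over the 14 libraries with at least 100 epithelial barcodes are given as a description, since the points share animals and the makeup of the sets. They were TFF1, VSIG1 and ATP4A for CLDN18 (Pearson r of log2(CPM + 1) of 1.00 for each, which rests on the abomasum library) and OTC, AGMAT and CPS1 for CLDN15 (0.99, 0.97 and 0.97). They were MPP1, AKAP7 and PCTP for CLDN3 (0.96, 0.93 and 0.92) and CHCHD7, FNTA and DYRK3 for CLDN4 (0.94, 0.93 and 0.93). INKA1, GPX1 and MIF were most like CLDN1 (0.93, 0.92 and 0.91). OTC and CPS1 are enzymes of the urea cycle. Among the claudins themselves CLDN3 and CLDN7 were most alike (0.80), followed by CLDN2 and CLDN5 (0.75) and by CLDN1 and CLDN4 (0.63). CLDN2 and CLDN5 did not exceed 11.3 and 9.61 CPM in the epithelial sets, so their r rests on low levels.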

How the data were processed

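Single-cell RNA-seq (10x Chromium 3′ v3) was measured in 15 libraries. The authors aligned reads to ARS-UCD1.2 with Cell Ranger 3.1.0, and the deposited values are raw UMI counts per gene and barcode; the annotation release is not given in the sources used here. Groups came from the labels. The cutoffs of the study's methods were used, which keep barcodes that have 500 to 4000 genes, fewer than 50000 UMIs and less than 40% of UMIs from mitochondria, and doublets were removed at 0.8% per 1000 barcodes with the Scrublet method, run per library in Python 3.11.15 with 2 simulated doublets per barcode. UMIs were summed per library and set and given as CPM with exact Poisson 95% intervals. A gene was called at a 2-fold difference with intervals apart, given at least 20 UMIs over both sides; ratios against 0 UMIs used a floor of 3. Small and large intestine were compared by an exact two-sided permutation test on log2(CPM + 1), and MKI67 barcodes by an exact two-sided sign-flip test with Benjamini-Hochberg adjustment over all tested genes (SciPy 1.17.1). Clusters used scanpy 1.11.5 and Leiden (leidenalg 0.10.2) at resolutions 0.5 (epithelial) and 0.3 (PECAM1) on 2000 variable genes without claudins, 30 components and 20 neighbours; they were named only from at least 3 fixed markers. Detection shares were read again after thinning barcodes to 1000 UMIs. Scaling alternatives used edgeR 4.0.16 (TMM) and DESeq2 1.42.0 (median of ratios), with other filters, sets, weights and thresholds. The scripts were tested on simulated data.

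The genes, lists (tight junction, other claudins, leukocyte, enterocyte, hepatocyte and cholangiocyte markers) and clusters were chosen with earlier results of these data known, and the splits by CSF1R, TNFRSF17 and CDH5, the GJA5, PROX1 and C1QA levels and the cluster names after the values were seen. Named genes were the 9 claudins, the genes defining the sets, the 2 highest and 2 lowest of the lists in each comparison, and the 3 most like each claudin with at least 20 CPM in a library (those of CLDN7 are not reported here). Cluster leaders and other listed markers were named for what they show and were chosen after their values were seen. No sequences are printed. Rumen, mammary gland and the other AD tissues were not analysed here.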

Additional observations from a re-analysis of the deposited data

Results flagged for a closer look

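For CLDN4 and CLDN7 the AD to NB ratio had opposite signs in different tissues, with intervals apart in each; with 1 library per tissue and stage the difference between tissues was not tested. The log2 ratio of CLDN4 was 1.07 in colon and −4.76 in duodenum. The duodenum value turned to 0.55 without a filter on barcodes and to 0.13 with doublets kept, and the colon call was lost under most other settings, so the opposite signs of CLDN4 depend on the processing. The log2 ratio of CLDN7 was 2.78 in cecum and −4.88 in duodenum, where the AD set had no UMI and the value is a bound against 3 UMIs. Of the AD duodenum epithelial barcodes 83.7% had PTPRC, against 58.1% in AD cecum and 64.4% in AD colon. Without PTPRC barcodes AD duodenum had 0 UMIs of CLDN4 and of CLDN7 in 133202, and CLDN4 was no longer called lower (log2 ratio against a floor of 3 UMIs −0.56), whereas CLDN7 still was (−2.26).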

How the results depend on the processing

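The counts of claudins higher on either side of epithelial against PECAM1 barcodes, and of NB small against large intestine, stayed within 1.5 times under every alternative run. The count of claudins higher in AD, 2 over the 4 tissues, was 1 without a filter on barcodes, without an upper limit on genes, with under 10% mitochondrial UMIs, with doublets kept, with TMM, with median of ratios scaling, with genes above 1% of UMIs left out of the total and with a fold of 4, 5 without PTPRC barcodes and 4 with at least 2 marker UMIs. The count lower with MKI67 in all libraries, 0, was 1 without a filter and without an upper limit on genes. It was also 1 with barcodes of both markers kept, with equal weight per barcode and with thinning to 2000 UMIs. It was 2 with under 10% mitochondrial UMIs, TMM and median of ratios scaling. Leaving out 1 library gave 0 to 1 (1 without NB duodenum or NB ileum). The shares of all genes lower with MKI67 under these settings are not given here. The log2 ratio of CLDN3 between epithelial and PECAM1 barcodes of AD duodenum, −1.40, turned to 0.81 without a filter, 0.65 with doublets kept and 0.18 without PTPRC barcodes, and that of CLDN4 between AD and NB duodenum, −4.76, turned to 0.55 without a filter and 0.13 with doublets kept. The cause was not tested. Of the single log2 ratios, 966 kept call and sign, 19 lost the call and 3 turned for epithelial against PECAM1 barcodes, and 160, 18 and 2 for AD against NB. Of the single CPM values under the alternatives, 501 moved and 984 stayed the same in epithelial barcodes. In PECAM1 barcodes 227 moved and 1258 stayed the same. Epithelial values moved most often with genes above 1% of UMIs left out of the total (70 moved, 65 the same). At least 2 marker UMIs came next (63 and 72). The library with the highest epithelial level was kept for 4 to 8 of the 9 claudins. No paired analysis was possible between tissues or stages because each had 1 library and the labels carry no replicate numbers; MKI67 barcodes were compared with the others within each library. The AD sets were small, and values from under 20 UMIs carry wide intervals.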
